A study of Mus musculus with 56 samples.

Results

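The keratins described here are 7 genes of simple and stratified epithelium, Krt5, Krt7, Krt8, Krt14, Krt17, Krt18 and Krt19. They were chosen by gene symbol, with earlier results of these data known. Counts and ranks of these keratins are therefore a description and no independent test. Of the 7, 5 had a probe among the 15063 genes of the array (Krt5, Krt7, Krt8, Krt18 and Krt19, with 1 probe each), and no probe was named for Krt14 or Krt17, which were not analysed here. The values are log2 ratios of spot intensity from mouse 2-color oligonucleotide arrays. OV, a cell line of mouse ovarian surface epithelium, was compared with 3T3, a mouse fibroblast line, on 4 arrays for each of 7 kinds of target. SMART (template-switching PCR) and GA (global PCR of polyadenylated cDNA) were applied to 10 pg of total RNA. SMART, GA, SM37 (SMART at a lower reverse transcription temperature with another primer) and IVTIII (3 rounds of T7 in vitro transcription) used 10 ng. Unamplified cDNA was made from 100 μg. These are amounts of RNA at the start. By the study's methods, only a fraction of the product from 10 ng was carried into later amplification, to adjust it to single-cell content in the PCR methods. All 4 arrays of a set drew on the same pair of cell lines, and OV was labeled with Cy5 on arrays 1 and 3 and with Cy3 on arrays 2 and 4. The 4 arrays hold 2 independent targets of each line with dye swaps, so they are not 4 independent samples, and the p-values measure the spread between hybridizations of these RNAs, not between cultures. The labels do not say which arrays form a swap pair. Arrays 1 and 2 and arrays 3 and 4 were taken as pairs in further fits, and where a keratin call changed this is given beside it. A further 21 arrays set 2 OV targets made in parallel against each other, and 3 arrays set a target against itself. Another 4 arrays compared parallel targets from pooled neural stem cells. Within a set, turned arrays correlated over genes at 0.46 to 0.89, except array 1 of SMART with array 2 (0.38) and with array 4 (-0.07), and Krt8 and Krt19 were still called with SMART by limma log odds without any 1 of its arrays, although without array 2 their adjusted p in limma was 0.0515 each. The means of GA at 10 pg did not follow those of unamplified cDNA over all genes (Pearson correlation -0.06). All keratin values of that set are to be read with this limit.

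Keratins are the intermediate filament proteins of epithelial cells. A filament is built from pairs of a type I and a type II keratin, and simple epithelia pair Krt8 (type II) with Krt18 (type I), with Krt7 and Krt19 added in many ducts and linings. Stratified epithelia pair Krt5 with Krt14 in the basal layer, and Krt17 appears in appendages and wounded skin. The surface epithelium of the ovary is a simple epithelium derived from mesothelium, whereas fibroblasts build their filaments mainly from vimentin.

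In the RefSeq annotation Krt8 and Krt18 are neighbors on chromosome 15 and are read from opposite strands. Krt7, also on chromosome 15, lies between Krt80 and Krt87, and Krt5 lies there between Krt6a and Krt71. Krt19 is on chromosome 11 between Krt15 and Krt9, and Krt14 and Krt17 flank Krt16 on the same chromosome. Promoters of 5 of the 7 keratins were matched by symbol in RefSeq (build GRCm38.p6). Those of Krt7, Krt8 and Krt18 are shown, since in unamplified cDNA Krt7 and Krt8 were called higher in OV and Krt18, the partner and neighbor of Krt8, was called lower. Each run is the 250 bases before the gene start, 5′ to 3′ on the gene's strand, at chr15:101412153-101412402 (plus strand) for Krt7, chr15:102004343-102004592 (minus strand) for Krt8 and chr15:102027966-102028215 (plus strand) for Krt18. Capitals mark matches to 5 motifs searched on both strands.
Krt7: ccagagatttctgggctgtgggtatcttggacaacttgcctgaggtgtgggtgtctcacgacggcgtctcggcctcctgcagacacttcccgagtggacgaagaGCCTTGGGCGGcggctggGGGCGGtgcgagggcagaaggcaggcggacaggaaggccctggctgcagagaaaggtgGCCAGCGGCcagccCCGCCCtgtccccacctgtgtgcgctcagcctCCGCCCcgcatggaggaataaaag
Krt8: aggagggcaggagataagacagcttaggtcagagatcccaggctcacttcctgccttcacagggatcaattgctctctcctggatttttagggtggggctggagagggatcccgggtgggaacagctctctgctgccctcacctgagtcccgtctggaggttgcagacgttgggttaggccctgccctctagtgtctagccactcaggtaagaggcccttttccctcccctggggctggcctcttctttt
Krt18: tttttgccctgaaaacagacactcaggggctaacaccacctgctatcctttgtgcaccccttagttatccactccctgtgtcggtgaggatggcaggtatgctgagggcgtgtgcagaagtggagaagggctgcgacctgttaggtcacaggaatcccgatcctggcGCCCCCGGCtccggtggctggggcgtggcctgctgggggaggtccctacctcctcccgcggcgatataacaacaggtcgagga
The table held 32851 promoters in all, and the share of them with a motif in the 250 bases before the start gives its background. The first motif searched, the core box at which transcription factor TFIID binds, is TATAAA, found in 12.4% of promoters. The second, bound by Sp1, is GGGCGG, found in 32.7%. The third, bound by NF-Y, is CCAAT, found in 33.8%. The fourth, bound by AP-1, is TGANTCA, found in 6.75%. The fifth, bound by AP-2, is GCCNNNGGC, found in 13.7%. The Krt7 run held GGGCGG 4 times, at 141, 128, 56 and 24 bases before the start, and GCCNNNGGC at 146 and 70 bases, the first of which overlaps a GGGCGG. The Krt18 run held 1 GCCNNNGGC, at 83 bases, and the Krt8 run held no match to these letters. GC content was 66.0% for Krt7, 58.0% for Krt8 and 60.4% for Krt18, against a median of 52.4% over all promoters. These are descriptions of the sequence, and nothing on the arrays bears on binding at them.

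In unamplified cDNA, 3 keratins of simple epithelium were many-fold higher in OV than in 3T3, while Krt18, the type I partner of Krt8, was slightly lower. Krt8 averaged a log2 ratio of 3.44 ± 0.48, or 10.8-fold, Krt19 3.17 ± 0.52, or 9.0-fold, and Krt7 2.70 ± 0.58, or 6.49-fold (SD, n = 4 arrays each). Krt18 averaged -0.75 ± 0.25 (SD, n = 4), so that its signal was 1.68-fold higher in 3T3. Of the 4 keratins with a value on all 4 arrays, 3 were called higher and 1 lower at an LOD above 0, the log odds of differential expression from limma. Over all 10185 genes tested in unamplified cDNA, 8.81% were called higher and 7.3% lower. In RNA of whole cultures, fewer cells with a keratin and less RNA per cell cannot be told apart.

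Krt8, the type II keratin of simple epithelia, had log2 ratios of 3.86, 3.41, 2.77 and 3.70 on arrays 1 to 4. All were far from 0 and on the same side whichever dye OV carried. Its LOD was 6.94 and its adjusted p was 0.000111 in limma, and it ranked 10 from the highest of 10185 genes. Krt7, the type II keratin of ducts and linings, had 2.88, 1.84, 3.00 and 3.08. Array 2 stood below the other arrays, and even there the ratio was positive. Its adjusted p was 0.000335, with an LOD of 4.28. Krt19, a type I keratin that lacks most of the tail domain, had 3.88, 2.66, 2.97 and 3.18, with an LOD of 5.97 and an adjusted p of 0.000168. The ranges of Krt8, Krt19 and Krt7 overlapped, so their order was not resolved by these arrays, and on array 3 Krt7 stood above Krt8.

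Krt18, the type I partner of Krt8, had log2 ratios of -0.97, -0.74, -0.88 and -0.41. All 4 arrays lay below 0, and none came near the values of Krt8 on the same array. Its LOD was 0.58 and its adjusted p was 0.00192, and it ranked 487 from the lowest of 10185 genes. This call was the least firm of the 4, since without array 1, 2 or 3 the LOD fell to 0 or below, with adjusted p between 0.00640 and 0.0127. The probe read as Krt18 is annotated from an expressed sequence tag, whereas the probes of the other measured keratins are annotated from cDNA or mRNA records, and what it hybridizes to was not tested here.

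Krt5, the type II keratin of basal stratified cells, had log2 ratios of 0.14, 0.01 and 0.02 on arrays 1, 2 and 4 and no value on array 3. These lie close to 0, and with 3 arrays Krt5 did not enter the main test. In the fit of genes with values on 2 or more arrays, its mean was 0.06, with a 95% interval from -0.12 to 0.24 and an adjusted p of 0.575. Spot intensities were not used here, so whether Krt5 was near background in both lines is unknown.

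**Figure D1:**
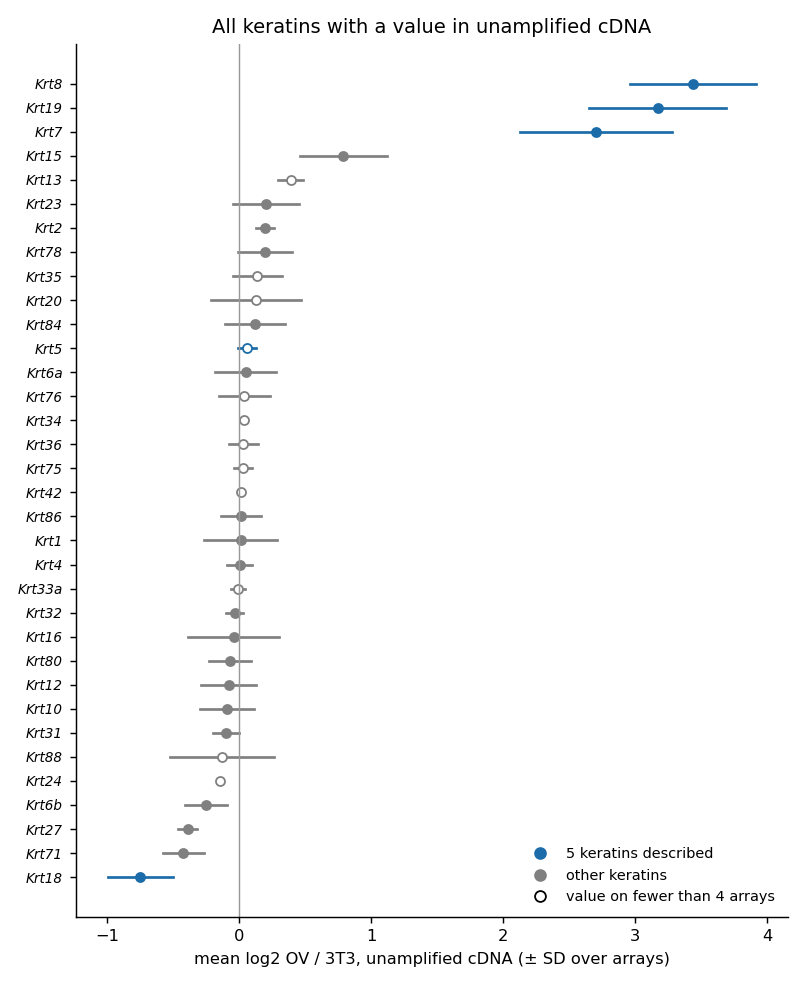
Mean log2 ratio of OV over 3T3 in unamplified cDNA for each keratin with a value (horizontal axis, ± SD over arrays), sorted from high to low, with the 5 keratins described here in blue and 29 others in gray. Krt8, Krt19 and Krt7 stand between 2.70 and 3.44, the other keratins lie between -0.43 and 0.79, and Krt18 is lowest at -0.75.

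In unamplified cDNA the other members of the keratin family stayed closer to 0 than Krt8, Krt19 and Krt7. Of 30 other keratins with a probe, 18 were tested in unamplified cDNA and none was called by LOD in limma, while 5 had an adjusted p under 0.05, as many as had an unadjusted p under 0.05 (5). Over all genes 48.8% passed that adjusted p. Their median log2 ratio was -0.02, against -0.0038 over all genes. Krt15, a type I keratin of basal cells and the gene next to Krt19, was highest at 0.79 ± 0.33 (SD, n = 4, adjusted p = 0.00360). Krt71, a hair sheath keratin next to Krt5, was lowest of the 18 at -0.43 ± 0.16 (SD, n = 4, adjusted p = 0.00533). In amplified targets, Krt15 was called higher with IVTIII (0.88, adjusted p in limma 0.000142), as 1 of 4 other keratins tested there. Krt71 was called lower with GA (-0.98, adjusted p in limma 0.00231), as 1 of 9. With SM37, 1 of 14 was called higher. Over all genes, 11.6% were called higher with IVTIII, 6.14% lower with GA and 3.91% higher with SM37. No probe sequence was at hand with which to search for cross-hybridization among keratins.

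In amplified targets Krt8 stayed higher in OV at every method that started from 10 ng, at a smaller ratio than in unamplified cDNA. It was called in all 4 of these sets. With SMART the log2 ratios were 0.79, 1.41, 1.34 and 0.86, with a mean of 1.10 ± 0.32 (SD, n = 4) or 2.14-fold. With GA they were 1.77, 1.75, 1.46 and 2.43, with a mean of 1.85 ± 0.41 or 3.62-fold. With SM37 they were 1.53, 1.27, 1.58 and 1.79, with a mean of 1.54 ± 0.21 or 2.91-fold. With IVTIII they were 1.21, 1.55, 1.01 and 1.42, with a mean of 1.30 ± 0.24 or 2.45-fold. None of these 16 values reached the lowest unamplified value, 2.77. The adjusted p in limma was 0.00440 for SMART, 0.00156 for GA, 0.000152 for SM37 and 0.000101 for IVTIII.

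At 10 pg Krt8 was positive on every array that gave a value, but its spread widened in GA. SMART at 10 pg gave 0.22, 0.83 and 0.48 on arrays 1, 2 and 4, so Krt8 did not enter the main test there. GA at 10 pg gave 2.95, 2.13, 0.59 and 1.40, with a mean of 1.77 ± 1.01 (SD, n = 4). Arrays 1 and 2, taken as one dye-swap pair, lay above arrays 3 and 4, and the LOD was -1.96, so it was not called. Its adjusted p in limma was 0.0342, where 17.1% of all genes in that set passed a threshold of 0.05, and with the pairs as a block it was 0.0807.

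Krt19 was called higher in OV with 2 of the amplified targets. SMART gave 0.70, 1.10, 1.53 and 0.93, with a mean of 1.07 ± 0.35 (SD, n = 4) and an adjusted p of 0.00480. GA gave 1.61, 1.31, 0.65 and 1.54, with a mean of 1.28 ± 0.44 and an adjusted p of 0.00381 (0.0501 with the pairs averaged, where it was still called by LOD). With GA the call was lost without array 1 or array 2, and the mean was then 1.17 or 1.27. The other targets left small positive values on some arrays only. SM37 gave 0.18, 0.33 and 0.19, SMART at 10 pg 0.25, 0.35 and 0.11, and GA at 10 pg 0.26, 0.63 and 1.00, each on 3 arrays. IVTIII gave a single value, 0.13.

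Krt7 had no amplified set with a value on all 4 arrays other than GA at 10 pg. SMART gave 0.80, 1.00 and 0.91 on arrays 1 to 3, GA 0.58, 0.41 and 0.50 on arrays 2 to 4, and IVTIII 0.37, 0.62 and 0.13 on arrays 1 to 3. All were positive and all were below the lowest unamplified value, 1.84. In the fit of genes with 2 or more arrays Krt7 was called higher with SMART (LOD 3.45, adjusted p = 0.00529) and not with GA or IVTIII. In that fit 1.87% of all genes were called higher with SMART, 1.69% with GA and 8.79% with IVTIII. SMART at 10 pg gave 1 value, 0.24, and SM37 none. GA at 10 pg gave -0.05, -0.49, -1.51 and -0.73, all below 0, the side opposite to every other value of Krt7 between the cell lines. Its mean was -0.69 ± 0.61 (SD, n = 4) and it was not called (LOD -4.40, adjusted p = 0.124). A change of side was common in that set, where 39.1% of 258 genes over 2-fold in unamplified cDNA kept their sign.

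Krt18 lay near 0 in the targets from 10 ng that gave it a value. SMART gave -0.08, -0.13 and -0.02 on arrays 1 to 3, GA -0.15 and -0.21 on arrays 1 and 2, and SM37 -0.04 on array 1. GA at 10 pg gave 0.08 and 0.90 on arrays 2 and 3. Neither SMART at 10 pg nor IVTIII gave a value. Krt5 gave -0.23 and -0.06 with SMART, 0.34 on 1 array of GA at 10 pg and 0.07 on 1 array of GA.

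**Figure D2:**
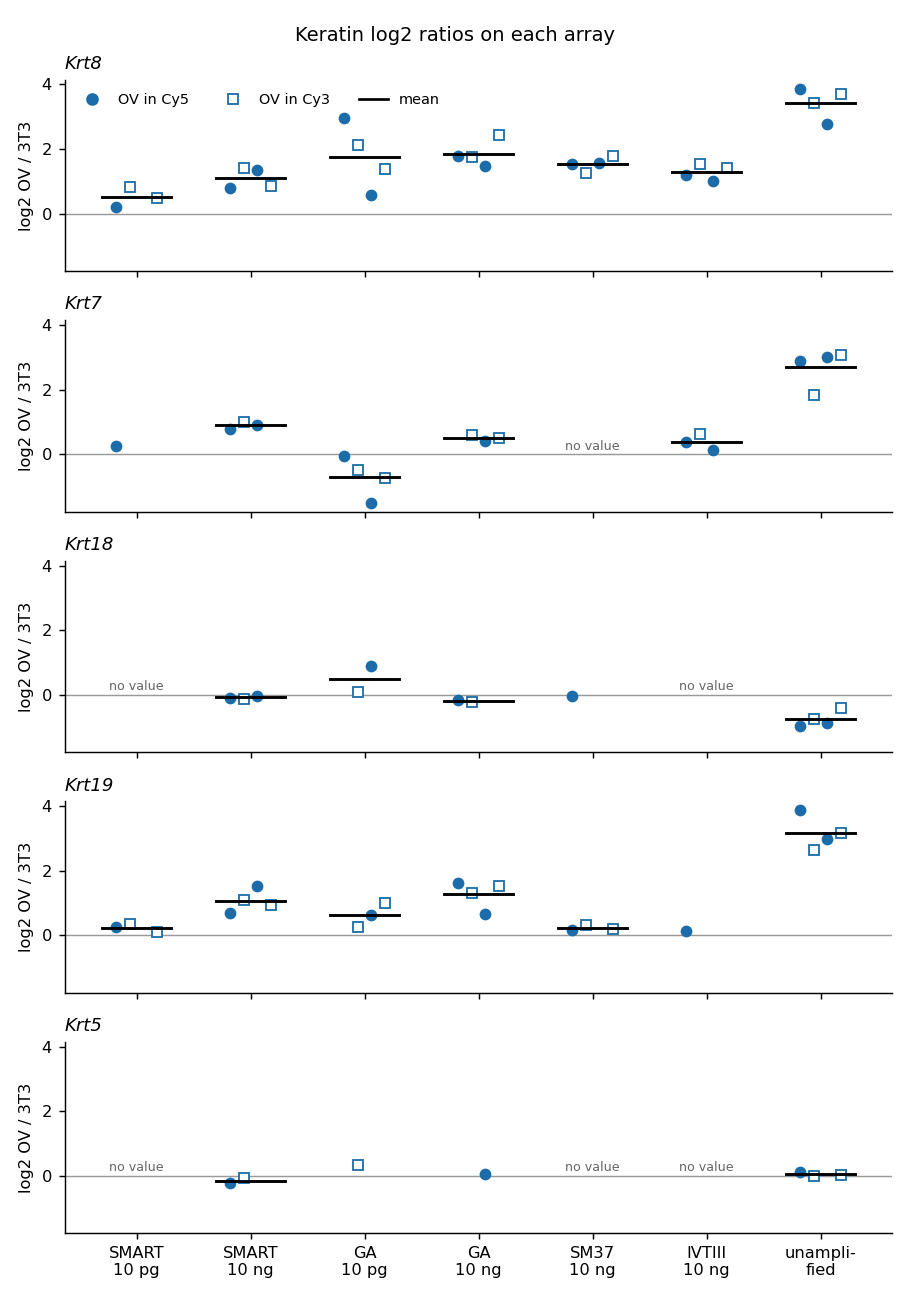
Log2 ratio of OV over 3T3 (vertical axis) for each of the 5 keratins on each array, by target (horizontal axis), with filled circles for OV in Cy5, open squares for OV in Cy3 and a bar for the mean of 2 or more arrays. Krt8, Krt19 and Krt7 lie highest in unamplified cDNA, at 1.84 or above on every array, and Krt7 lies below 0 in GA at 10 pg.

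The filter on missing values bears on how many keratins could be tested. Krt8 had a value on 27 of the 28 arrays of OV against 3T3, Krt19 on 22, Krt7 on 18, Krt18 on 12 and Krt5 on 7. Of 20 possible keratin values in a set of 4 arrays, SMART at 10 pg held 7, GA at 10 pg 14, SMART 16, GA 14, SM37 8, IVTIII 8 and unamplified cDNA 19. The share of all genes with a value on an array ran from 13.2 to 28.6% for SMART at 10 pg and from 73.1 to 88.5% for unamplified cDNA. The number of keratins tested, and called higher, was 0 of 0 for SMART at 10 pg, 0 of 2 for GA at 10 pg, 2 of 2 for SMART, 2 of 2 for GA, 1 of 1 for SM37 and 1 of 1 for IVTIII. The share of all tested genes called higher was 6.04% for SMART at 10 pg, 2.73% for GA at 10 pg, 2.53% for SMART, 2.09% for GA, 3.91% for SM37 and 11.6% for IVTIII. From 10 ng the keratins tested were Krt8, and in SMART and GA also Krt19, both high in OV in unamplified cDNA. Krt18 and Krt5 had no amplified set with a value on all 4 arrays. These counts therefore do not compare keratins as a group with all genes. The reason for a missing value is not stated, so a keratin that dropped out is not known to be absent from the target.

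The amplified ratios were next tested against the unamplified ones, gene by gene over all genes with a value on all 8 arrays. All such differences share the 4 unamplified arrays, so they are not independent of each other. Krt8 differed in each set in which it could be tested. The difference, amplified minus unamplified, was -2.34 for SMART (SE 0.23, adjusted p = 0.000114), -1.58 for GA (SE 0.26, adjusted p = 0.00338), -1.89 for SM37 (SE 0.21, adjusted p = 0.000136) and -2.14 for IVTIII (SE 0.22, adjusted p = 4.25e-05). For GA at 10 pg it was -1.67 (SE 0.47, adjusted p = 0.0238), and this call was lost without array 4 of GA at 10 pg or array 1, 2 or 4 of unamplified cDNA, with adjusted p between 0.0553 and 0.0705. It was lost too with dye-swap pairs as a block (adjusted p = 0.0569) or averaged (adjusted p = 0.146). Krt19 differed by -2.10 for SMART (SE 0.24, adjusted p = 0.000301) and -1.89 for GA (SE 0.28, adjusted p = 0.00199). With dye-swap pairs averaged, which leaves 2 values a set, both GA differences lost the call in limma (adjusted p = 0.0578 for Krt8 and for Krt19), while with the pairs as a block both were called (adjusted p = 0.0129 and 0.00810). Krt7 differed by -3.39 for GA at 10 pg (SE 0.37, adjusted p = 0.000241), a set whose means did not follow unamplified cDNA over all genes.

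Read against the background, the count of keratins below their unamplified ratio was 2 of 2 for GA at 10 pg, 2 of 2 for SMART, 2 of 2 for GA, 1 of 1 for SM37 and 1 of 1 for IVTIII. The share of all genes with a significantly lower ratio than in unamplified cDNA was 20.2% for GA at 10 pg, 10.5% for SMART, 14.3% for GA, 23.3% for SM37 and 23.2% for IVTIII. That background holds genes of every ratio, whereas Krt8, Krt19 and Krt7 ranked 10, 19 and 31 from the highest of 10185 in unamplified cDNA. The counts therefore do not show a drop particular to keratins. Shares kept by other genes called higher are given below. These calls also stood after each array was scaled to a common spread, but the sizes moved. The Krt8 difference was then -3.12 for GA at 10 pg, -1.56 for SMART and -2.82 for IVTIII, and the Krt19 difference was -1.33 for SMART. The share of all genes with a lower ratio was then 22.3% for GA at 10 pg and 4.23% for SMART.

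With genes on 2 or more arrays of each set allowed, more keratins entered the test. Krt7 then differed by -1.80 for SMART (adjusted p = 0.00243), -2.20 for GA (adjusted p = 0.00217) and -2.33 for IVTIII (adjusted p = 0.000317). Krt19 differed by -2.93 for SM37 (adjusted p = 7.71e-05) and by -2.54 for GA at 10 pg (adjusted p = 0.00134). In SMART at 10 pg both Krt8 and Krt19 differed by -2.93 (adjusted p = 7.78e-05 each). Krt18 moved the other way, toward or past 0, by 0.67 for SMART (adjusted p = 0.0131) and 1.24 for GA at 10 pg (adjusted p = 0.0189), while its difference of 0.57 for GA did not pass (adjusted p = 0.0677). In these fits the share of all genes with a lower ratio than unamplified cDNA was 11.1% for SMART at 10 pg, 13.1% for GA at 10 pg, 7.74% for SMART, 10.8% for GA, 19% for SM37 and 19.5% for IVTIII. The share with a higher ratio was 15.6% for GA at 10 pg, 5.77% for SMART and 6.75% for GA.

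**Figure D3:**
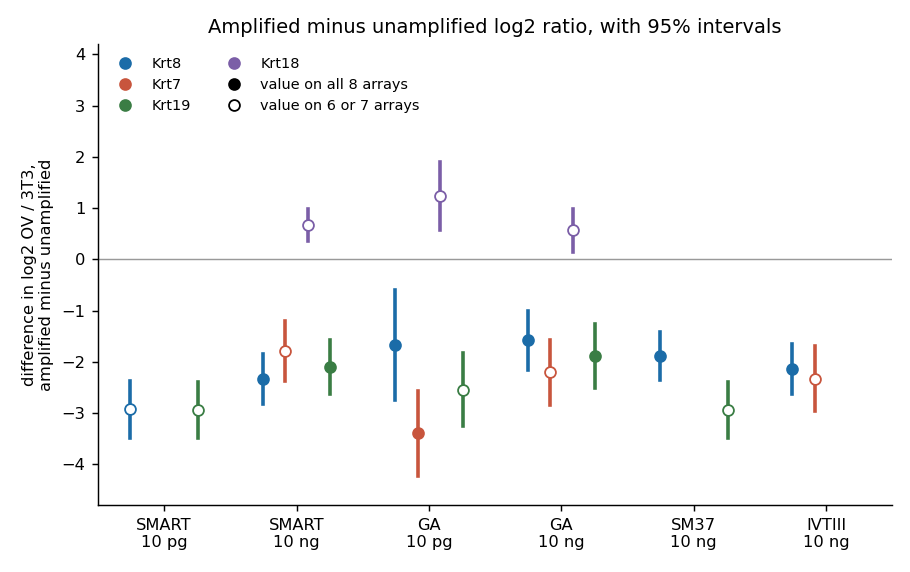
Difference in log2 ratio of OV over 3T3, amplified minus unamplified (vertical axis), with 95% intervals from limma, for 4 keratins in 6 amplified targets (horizontal axis). Filled points have a value on all 8 arrays and open points on 6 or 7. The intervals of Krt8, Krt7 and Krt19 lie below 0 and those of Krt18 above 0.

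The share of the unamplified log2 ratio that a keratin kept differed by method. From 10 ng, Krt8 kept 32.0% with SMART, 54.0% with GA, 44.9% with SM37 and 37.7% with IVTIII. Krt19 kept 33.6% with SMART, 40.4% with GA, 7.41% with SM37 (3 arrays) and, on a single array, 4.0% with IVTIII. Krt7 kept 33.4% with SMART, 18.4% with GA and 13.8% with IVTIII, each on 3 arrays. The 3 keratins thus lay close together with SMART from 10 ng and apart with GA. From 10 pg, SMART kept 14.8% of Krt8 and 7.46% of Krt19, each on 3 arrays, and 9.07% of Krt7 on a single array. The median was 36.3% over 153 other genes with values on all 4 arrays, a filter that none of these keratins passed. GA at 10 pg kept 51.4% of Krt8 and 19.8% of Krt19 (3 arrays), and Krt7 was at -25.7%. There the median over 411 other genes was -20.3%. From 10 ng, the median share kept by other genes called higher in unamplified cDNA was 32.4% with SMART (668 genes), 39.9% with GA (539 genes), 15.7% with SM37 (497 genes) and 55.3% with IVTIII (412 genes). Those genes were chosen on the unamplified values themselves and had a value on all 4 arrays of the amplified set. The shares are a description and were not tested.

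GA at 10 pg stood apart from the other targets over all genes. Its mean ratios had a Pearson correlation of -0.06 with the unamplified means across 4002 genes, which are not independent replicates, and 39.1% of 258 genes over 2-fold in unamplified cDNA kept their sign. SMART at 10 pg had 0.80 across 1113 genes, SMART 0.76, GA 0.61, IVTIII 0.50 and SM37 0.48. Krt8 kept its positive sign on all 4 arrays of GA at 10 pg and Krt7 reversed on all 4. The difference of GA at 10 pg minus GA at 10 ng could be tested on all 8 arrays for Krt8 alone, and it was -0.09 with a 95% interval from -1.11 to 0.94 (adjusted p = 0.903). In that comparison 28.7% of 2998 genes differed in either direction. With 2 or more arrays allowed, Krt7 differed by -1.19, GA at 10 pg minus GA at 10 ng (SE 0.32, adjusted p = 0.0374), where 18.1% of genes differed. Between SMART at 10 pg and SMART at 10 ng no keratin had all 8 values, and with 2 or more arrays the difference was -0.59 for Krt8 (adjusted p = 0.523) and -0.83 for Krt19 (adjusted p = 0.253). There 0% of 3474 genes were called by limma, while 212 had an unadjusted p under 0.05.

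The arrays of 1 OV target against another show how far keratin ratios move when no difference between cell lines is present. In unamplified cDNA all 5 keratins lay between -0.10 and 0.10 on the 1 array of this kind. Targets hybridized against themselves gave -0.16 to 0.12 over the 3 arrays. With SMART from 10 ng the values ran from -0.27 to 0.21, both of them for Krt7. With GA from 10 ng they ran from -0.19 to 0.74, with Krt19 at 0.00 and 0.66 and Krt7 at 0.74 on 1 array. In GA from 10 ng, OV against 3T3 gave Krt19 0.65 to 1.61 and Krt7 0.41 to 0.58. For Krt7 the GA ratios between the lines were thus no larger than the value between OV targets.

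At 10 pg the 2 methods differed in the keratin values between OV targets. GA at 10 pg gave log2 ratios of replica 1 over replica 2 of -1.67 and -1.10 for Krt19, of -1.11 and -0.86 for Krt7, and of 0.90 and 0.79 for Krt8. Both arrays of the dye swap agreed in sign for each. The mean for Krt19, -1.38, was larger in size than that of 94.8% of the 11595 genes with both values, and those of Krt7 and Krt8 were larger than 88.5 and 84.8%. The mean of -0.99 for Krt7 between 2 OV targets is larger in size than its mean of -0.69 between OV and 3T3 at the same amount. For Krt19 the mean of -1.38 is larger in size than its 0.63 between OV and 3T3 (3 arrays). For Krt8 the mean of 0.85 is smaller than its 1.77, but 0.90 and 0.79 both exceed its lowest value there, 0.59. SMART at 10 pg gave -0.27 and 0.07 for Krt19, -0.21 and -0.24 for Krt7, and 0.27 and 0.11 for Krt8. Over all genes the SD of the mean ratio was 0.63 for GA at 10 pg and 0.33 for SMART at 10 pg. With 2 arrays of 1 pair of targets in each set, neither the values nor the difference between methods was tested.

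Across amounts, the GA values of Krt7 were 0.61 and 0.67 at 100 pg, -0.06 on 1 array at 1 ng and 0.74 on 1 array at 10 ng. For Krt8 they were 0.05 and 0.49 at 100 pg, -0.45 on 1 array at 1 ng, and -0.08 and 0.34 at 10 ng. In SMART, Krt8 gave 0.18 and -0.12 at 100 pg, 0.07 and -0.11 at 1 ng, and -0.02 and 0.14 at 10 ng. The SMART arrays at 1 ng are so named by their titles, while their descriptions give 100 pg. IVTIII from 10 ng gave 0.20 and 0.36 for Krt8, and SM37 gave no keratin value on these arrays.

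**Figure D4:**
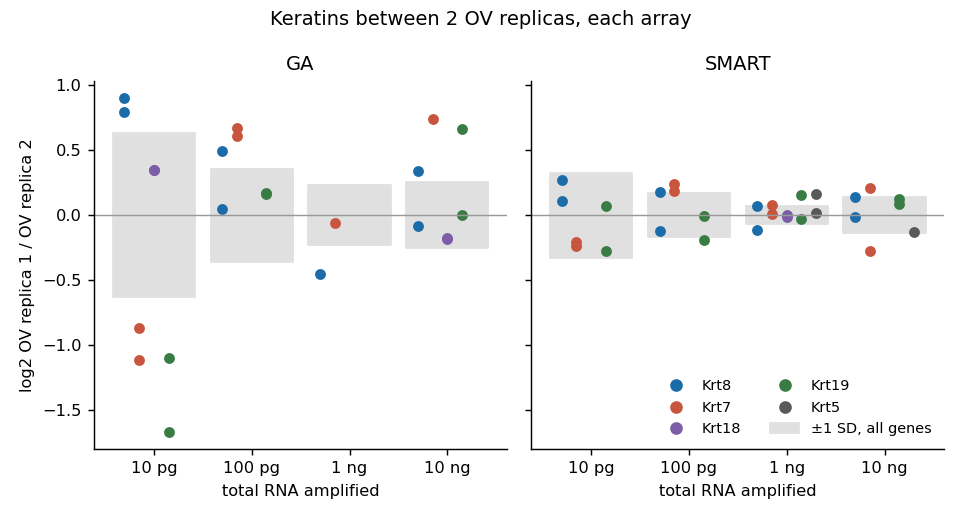
Log2 ratio of OV replica 1 over OV replica 2 (vertical axis) for each keratin and array, for GA on the left and SMART on the right. The horizontal axis is the amount of total RNA at reverse transcription. By the study's methods, products of amounts above 10 pg were diluted during amplification to single-cell equivalents. Gray bands are ±1 SD over all genes with both values. At 10 pg in GA, Krt8, Krt7 and Krt19 fall outside the band of 0.63.

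Between parallel targets from neural stem cells of embryonic neocortex, the keratins that gave values lay between -0.33 and 0.38 with GA. With SMART they lay between -0.35 and 0.24. By the study's methods the RNA of pooled cells was divided before amplification. The labels give these targets no difference to compare, and each value is the ratio of 2 parallel targets.

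Lists of genes that work with keratins are given for unamplified cDNA, where over all genes 8.81% were called higher and 7.3% lower. In a list of 13 to 15 genes that share comes to about 1 gene in each direction, so these small counts say nothing particular about a list. Among other intermediate filaments, 0 of 13 tested genes were called higher and 2 lower. Vim, the filament of fibroblasts, was lower in OV on all 4 arrays, from -1.09 to -0.59 (mean -0.85 ± 0.21, adjusted p = 0.000844), and Lmnb2, a nuclear lamin, averaged -0.83 ± 0.17 (adjusted p = 0.000663). The median of the 13 was -0.21. Among keratin linkers and desmosome genes, 3 of 15 were called higher and 2 lower, with a median of -0.10. Jup (plakoglobin, which ties keratin to desmosomes) rose by 1.38 ± 0.13, Evpl (envoplakin) by 0.67 ± 0.22 and Pkp2 (plakophilin 2) by 0.56 ± 0.05 (SD, n = 4 each). Plec (plectin, a linker of intermediate filaments to other fibers) was lower at -1.37 ± 0.17. Their adjusted p ran from 0.00011 for Jup to 0.00227 for Evpl.

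For the lists that follow, the same shares of all genes apply, 8.81% called higher and 7.3% lower, and the small counts again say nothing particular. Among epithelial transcription factors, 1 of 9 tested genes was called, Klf4, a factor of differentiating epithelium that fibroblasts also express. It was lower in OV, at -2.91 ± 0.34 (SD, n = 4, adjusted p = 7.97e-05), and it was also called lower with SMART, GA, SM37 and IVTIII. In GA at 10 pg Klf4 lay on the other side, at 0.41 ± 0.70 (SD, n = 4), and was not called. Among genes of stratified differentiation, 1 of 9 was called, Sprr1a, a cornified envelope protein, at 0.67 ± 0.16 (adjusted p = 0.00109). Among 13 genes of keratin binding and turnover, 2 were called higher and 2 lower. Hspb1, a small heat shock protein that associates with keratin filaments, was higher by 1.84 ± 0.50, and Casp6, a caspase that cleaves keratins and lamins, by 1.17 ± 0.16. Ywhaq, a 14-3-3 protein, was lower at -0.57 ± 0.09, and Casp8, an initiator caspase, at -0.54 ± 0.13. Hspb1 was called higher in OV with SMART at 10 pg, SMART, GA, SM37 and IVTIII too, and at -1.12 ± 1.20 in GA at 10 pg it was not called.

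Markers of the source cells are given as a description. Their lists were chosen with earlier results of these data known, so the counts are no independent check of the labels. Over all genes in unamplified cDNA 8.81% were called higher and 7.3% lower. In unamplified cDNA 7 of 9 tested markers of ovarian surface epithelium were called higher in OV and none lower, with Upk1b at 4.26, Wt1 at 3.65, Gata6 at 3.29 and Aldh1a1 at 3.17, and a list median of 2.55. Fibroblast markers were mixed, with 3 of 8 called lower in OV (Prrx1 at -3.33, Thy1 at -0.97 and S100a4 at -0.69) and 2 called higher (Col3a1 at 2.15 and Col1a1 at 1.47). Of 3 leukocyte and 2 endothelial markers tested, none was called, and their ratios lay between -0.12 and 0.22. Since these are ratios, levels at or near 0 cannot be read from them. Cdkn2a, a tumor suppressor deleted in NIH 3T3 cells and used as a check of direction, was higher in OV at 1.58 ± 0.11 (SD, n = 4, adjusted p = 7.39e-05).

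The genes whose ratios ran closest to a keratin over the arrays of OV against 3T3 were found for Krt8 and Krt19, the keratins with values on 20 or more of the 28. For Krt8 the nearest of 5556 genes were Bmper (root mean square difference 0.54 in log2 ratio over 23 shared arrays), C1qtnf7 (0.57 over 26) and Dhrs3 (0.68 over 27). For Krt19 the nearest of 2898 genes were Selenop (0.46 over 22), Wt1 (0.49 over 21) and Rac2 (0.53 over 21). Krt19 stood at rank 5 for Krt8, and Krt8 at rank 16 for Krt19, with a difference of 0.77 over 22 shared arrays. All 6 nearest genes averaged 2.36 or more in unamplified cDNA, which choosing by closeness to Krt8 or Krt19 favors. The points share arrays and RNA, so the likeness is a description.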

How the data were processed

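Log2 ratios of the 2 dyes were deposited by the authors, who computed them from background-subtracted spot intensities and applied print-tip lowess within each array in limma. Intensities were not used here, so signal over background is unknown and the number of arrays limits the precision. Control probes were left out (231 of 21997), and probes with 1 gene symbol in the platform annotation (16632) were averaged to 15063 genes. Ratios were read as Cy5 over Cy3, the likely direction from the study's methods and from Cdkn2a, and turned to OV over 3T3 by the dye labels. Unamplified arrays of opposite dye correlated at -0.884 to -0.784 as deposited.

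Each set of 4 arrays was fitted over all genes with a value on all 4 in limma 3.58.1 (R 4.3.3, lmFit and eBayes, prior proportion 0.01) and called at an LOD above 0. Amplified and unamplified sets were compared at a Benjamini-Hochberg adjusted p under 0.05. Alternatives were the filter, scaling, centring, probe averaging, a dye term, blocks, averaged dye-swap pairs, the threshold and leaving out each array. The fits were tested on simulated data. The members and lists were chosen with earlier results of these data known. Named genes were all keratins, up to 4 called genes of each list with the largest ratio in unamplified cDNA (2 where none was called), and the 3 genes nearest to a keratin. S100a4 was named after its value was seen. Labels contradict each other on the amount for IVTIII, the dye on 1 IVTIII array and the cells in a neural stem cell pool. The label of a GA hybridization 2 also names replicas. In these cases the title, the description's dye and the study's methods were followed. Figures were drawn with matplotlib in Python.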

Additional observations from a re-analysis of the deposited data

Results flagged for a closer look

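On array 2 of unamplified cDNA, Krt7 had a log2 ratio of 1.84, and the gap to the nearest other array was 0.839 of the whole range (1.84 to 3.08), above the critical value for 4 arrays. Of 12 groups of 4 keratin values tested in this way 1 passed, and chance alone passes about 1 in 20.

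The ratio of OV over 3T3 differed between an amplified target and unamplified cDNA, by limma's test of the difference, in 8 cases that share the 4 unamplified arrays. For Krt8 the difference was -2.34 for SMART, -1.58 for GA, -1.89 for SM37, -2.14 for IVTIII and -1.67 for GA at 10 pg. For Krt19 it was -2.10 for SMART and -1.89 for GA, and for Krt7 it was -3.39 for GA at 10 pg. The SD of mean log2 ratios over all genes was 0.25 for SMART, 0.49 for GA, 0.43 for SM37, 0.65 for IVTIII, 0.89 for GA at 10 pg and 0.53 for unamplified cDNA. After each array was scaled to a common spread, all 8 were called again, whereas with dye-swap pairs averaged those of Krt8 and Krt19 for GA and of Krt8 for GA at 10 pg were not.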

How the results depend on the processing

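Of 269 values of single keratins under an alternative, 252 kept direction and call, 13 lost the call, 1 gained it and 3 changed sign. The number of keratins called higher with GA ran from 1 to 2 when 1 array was left out, and GA at 10 pg had 1 at an adjusted p under 0.05 in place of the LOD. With 2 or more arrays per set, keratins that differed from unamplified cDNA numbered 2 for IVTIII, 4 for SMART, 2 for SM37, 2 for SMART at 10 pg and 4 for GA at 10 pg, since more were tested. For GA at 10 pg they ran from 1 to 2 when 1 array was left out, and 1 keratin differed between 10 pg and 10 ng of GA with 2 or more arrays. The Krt8 difference between these amounts, -0.09 and not called, ran from -0.48 to 0.30 when 1 array was left out, and became 0.30 and 0.03 without array 3 or 4 of GA at 10 pg and 0.10 without array 4 of GA. Krt18 in unamplified cDNA ran from -0.86 to -0.68 when 1 array was left out.

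With dye-swap pairs as a replicate block, keratins called higher numbered 0 for GA at 10 pg, 2 each for GA and SMART and 3 for unamplified cDNA, and 1 keratin differed from unamplified cDNA for GA at 10 pg. With the pairs averaged, 1 differed for GA at 10 pg and 0 for GA, where 13 genes in all differed, against 1123 without averaging. Averaging, and the block for differences between sets, were chosen after seeing the data. With the hybridization number as a replicate block, keratin counts were the same as without it. Same-numbered arrays of amplified and unamplified targets did not deviate together (r from -0.228 to 0.116), so they share only a number.

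The counts of all genes called, on which the shares beside the keratin counts rest, are less stable. With 1 array left out they were 80 to 230 for GA at 10 pg (241 with all arrays), 81 to 384 for SMART (262), 208 to 300 for GA (449), 445 to 570 for SM37 (752), 547 to 737 for IVTIII (873) and 788 to 1649 for unamplified cDNA (1640). At the adjusted p they were 756 for GA at 10 pg, 1525 for GA and 4973 for unamplified cDNA.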
